A study of Mus musculus with 5 samples.

Results

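Lysosomal enzymes and membrane proteins were followed through the injured mouse kidney as a set of 29 genes, named by symbol for what their products do, of 32285 genes in the files. All 29 were found. Kidneys of 5 mice were measured by single-cell RNA sequencing after ischemia-reperfusion injury (IRI), in which the blood supply of the kidney is stopped and then restored. The groups were day 10 after IRI (mice 3, 4 and 5) and 48 h after IRI (mice 1 and 2). Every mouse had been injured, so no value here is against an uninjured kidney. Each mouse was 1 library, the labels give no strain, age, sex or batch, and the p-values measure the spread between these mice.

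Lysosomes are acidic compartments in which cells break down engulfed particles, endocytosed protein and their own worn-out parts. Macrophages fill them with the remains of dying cells, and proximal tubule cells fill them with protein retrieved from the filtrate through the receptors megalin (Lrp2) and cubilin. Soluble hydrolases do the digestion, membrane proteins line the organelle and carry products out, and the transcription factor TFEB with its relatives switches on many of these genes through a short promoter sequence called the CLEAR element.

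The core of the CLEAR element, TCACGTGA, was searched in RefSeq promoter windows of build GRCm38.p6, each reaching from 250 bases before to 50 bases after a gene's start. The motif and the shorter E-box CACGTG inside it read the same on both strands, and every TCACGTGA also counts as a CACGTG. Of the 29 genes 25 had a window, and Asah1, Ctsb, Ctsh and Npc1 had none in the table. TCACGTGA stood in the windows of 4 of the 25 genes, against 1.12% of 27025 gene symbols in the table. CACGTG stood in 8 of the 25 (Ctsa, Ctsd, Ctsl, Gla, Glb1, Lamp1, Lgmn and Mcoln1), against 8.09% of symbols. A match is a description of the letters and not a measured binding site. The 4 windows with the longer motif are shown because they carry the sequence through which the regulator in the set is known to act. Capitals mark TCACGTGA, which began 13 bases before and at base 5 after the start of Ctsa (chr2:164833523-164833822, plus strand), 99 bases before that of Ctsd (chr7:142387778-142388077, minus strand), 46 bases before that of Mcoln1 (chr8:3500269-3500568, plus strand), and 228 and 195 bases before that of Gla (chrX:134600956-134601255, minus strand).
Ctsa: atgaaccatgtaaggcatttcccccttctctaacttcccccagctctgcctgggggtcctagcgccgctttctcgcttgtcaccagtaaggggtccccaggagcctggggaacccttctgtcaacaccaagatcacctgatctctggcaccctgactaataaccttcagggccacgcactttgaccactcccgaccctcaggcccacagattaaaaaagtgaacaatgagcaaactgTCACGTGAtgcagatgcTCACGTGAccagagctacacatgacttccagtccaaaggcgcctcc
Ctsd: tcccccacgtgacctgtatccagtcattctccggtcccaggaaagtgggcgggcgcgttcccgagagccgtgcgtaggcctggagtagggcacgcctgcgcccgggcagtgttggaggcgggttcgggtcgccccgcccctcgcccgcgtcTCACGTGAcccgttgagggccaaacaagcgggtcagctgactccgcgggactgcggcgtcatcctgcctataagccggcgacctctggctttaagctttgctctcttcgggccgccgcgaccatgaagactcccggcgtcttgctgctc
Mcoln1: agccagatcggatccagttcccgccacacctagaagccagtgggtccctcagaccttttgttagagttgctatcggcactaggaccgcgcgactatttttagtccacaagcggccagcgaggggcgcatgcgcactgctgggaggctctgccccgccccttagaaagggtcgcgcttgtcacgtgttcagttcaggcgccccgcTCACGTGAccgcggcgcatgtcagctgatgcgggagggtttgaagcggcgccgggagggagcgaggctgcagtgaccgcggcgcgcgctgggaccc
Gla: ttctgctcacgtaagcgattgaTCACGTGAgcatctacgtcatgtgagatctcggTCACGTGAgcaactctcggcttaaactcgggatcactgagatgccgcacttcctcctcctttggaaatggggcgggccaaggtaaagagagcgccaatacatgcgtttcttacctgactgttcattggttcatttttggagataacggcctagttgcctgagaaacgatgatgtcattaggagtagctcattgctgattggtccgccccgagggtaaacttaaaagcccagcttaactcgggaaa
Among these 4, Ctsa, Ctsd and Mcoln1 were higher at day 10 in the macrophage-like cluster by the edgeR test of their counts, and Gla did not pass it. By the same test 18 of all 29 genes and 11.5% of all genes tested were higher there. The part of the motif in these calls was not tested.

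Cells carry the authors' labels, and the immune label was divided by the authors' cluster numbers. Levels are counts per 1000000 (CPM) of the unique molecular identifiers (UMIs) summed over a mouse's cells of a label. Each UMI stands for 1 captured transcript end, so levels of different genes need no scaling by length. The 5 libraries held 3720 to 5912 kept cells, and any pair of libraries shared 3 to 10 cell barcodes. Immune cluster 0 held 1856, 1584 and 1753 cells in the day 10 mice and 514 and 614 in the 48 h mice. It is called macrophage-like for the summed level of 9 macrophage markers (Csf1r, Adgre1, C1qa, C1qb, C1qc, Lyz2, Tyrobp, Fcer1g and Ms4a7), which was 34261 to 38475 CPM in the day 10 mice and 22617 and 23377 CPM in the 48 h mice. The same sum was 8982 to 12803 CPM per mouse in the neutrophil-like immune cluster 5 and at most 444 CPM in the proximal tubule. Fold changes are day 10 relative to 48 h on the log2 scale, SE is their standard error, and adjusted p are from edgeR's quasi-likelihood test on all genes of a cell set, with Benjamini-Hochberg correction and a threshold of 0.05.

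In the macrophage-like cluster the lysosomal genes were higher at day 10. Of the 29 genes, all tested, 18 rose and 0 fell, where 11.5% of all 13980 genes tested rose and 12.5% fell. The median log2 fold change was 0.78 over the 29 genes and 0.07 over all genes. Summed over the set, lysosomal transcripts made up 18108, 23588 and 17785 CPM in the day 10 mice and 11955 and 12169 CPM in the 48 h mice. The lowest day 10 mouse was above the highest 48 h mouse, and mouse 4 stood above the other day 10 mice. The means were 19827 ± 3261 CPM at day 10 (SD, n = 3) and 12062 ± 151 CPM at 48 h (SD, n = 2), a log2 ratio of 0.72. Gene by gene, CPM were higher in every day 10 mouse than in every 48 h mouse for 25 of the 29, as they were for 28.0% of all genes tested. They were lower for 1, Gusb, and overlapped for Ctsl, Cd68 and Tfeb.

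**Figure D1:**
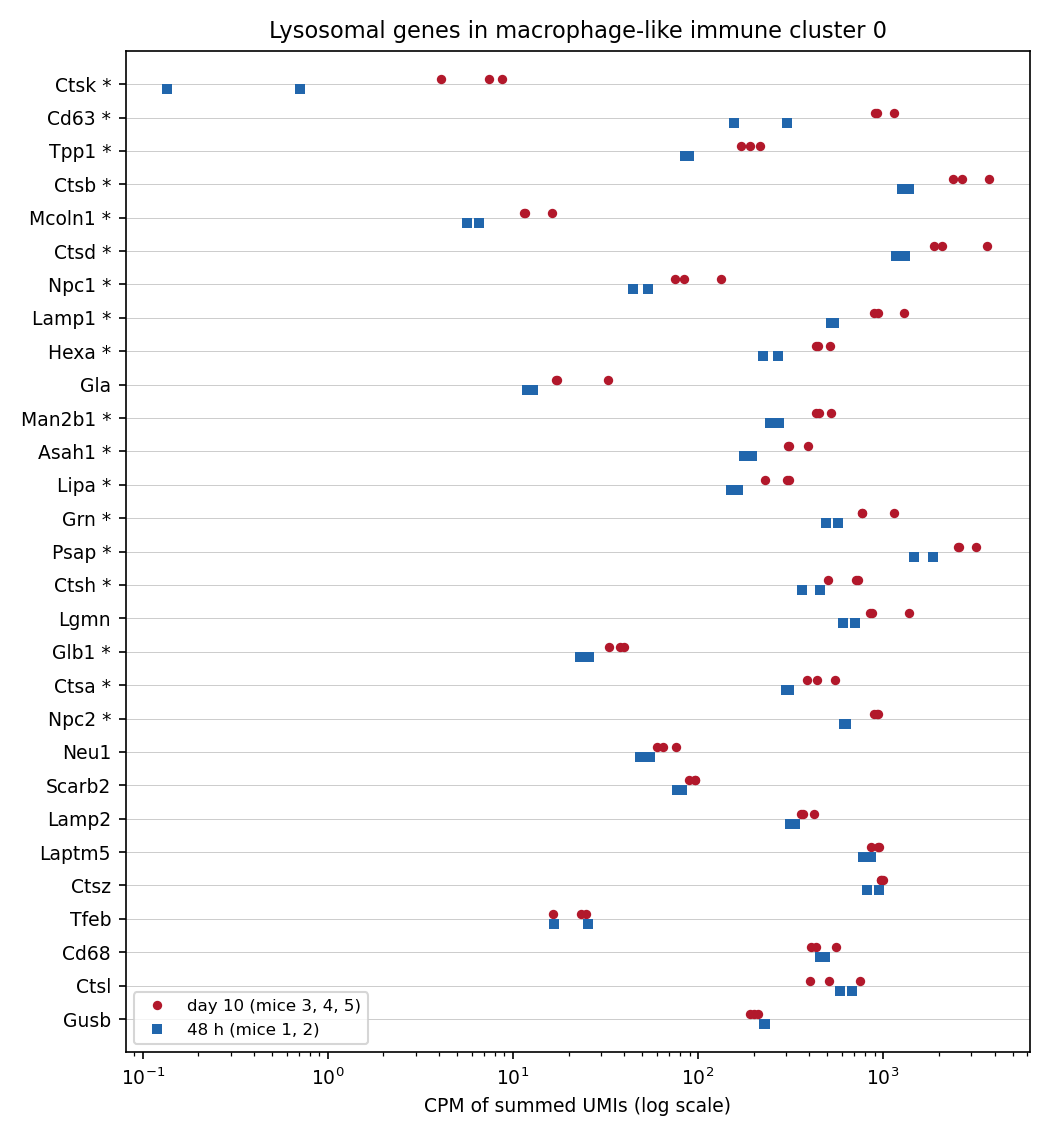
CPM of each of the 29 lysosomal genes in the macrophage-like cluster on a log axis, 1 point per mouse (day 10, red circles; 48 h, blue squares), ordered by fold change with the largest at the top; asterisks mark adjusted p under 0.05. The 18 marked genes have all day 10 points to the right of all 48 h points.

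The shift was seen in the middle of the cell distribution and not in a tail alone. The median cell of the macrophage-like cluster had 1.59, 2.08 and 1.60% of its UMIs on the set in the day 10 mice, and 1.09 and 1.11% in the 48 h mice. The lower quartile of cells was at 1.11, 1.47 and 1.16% in the day 10 mice and at 0.866 and 0.874% in the 48 h mice. The median depth of these cells did not separate the groups, at 11515, 15686.5 and 10887 UMIs in the day 10 mice and 13231 and 14660 in the 48 h mice.

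Of 9 proteases in the set 6 rose, among them the most abundant, the cathepsins Ctsb and Ctsd. Ctsb, a cysteine protease, had 2674, 3716 and 2373 CPM in the day 10 mice and 1381 and 1268 CPM in the 48 h mice, without overlap. It rose by 1.20 (SE 0.21, adjusted p = 0.0119). It took 14.6% of the set's UMIs at day 10 and 11.0% at 48 h, and was the first gene of the set at day 10 and the second, after Psap, at 48 h. Ctsd, the main aspartic protease, had 2082, 3656 and 1893 CPM at day 10 and 1178 and 1317 CPM at 48 h. Mouse 4 was far above the other mice, and the groups did not overlap (log2 fold change 1.08, SE 0.30, adjusted p = 0.0451). Ctsd overlaps the coding model Gm49369 on the same strand, so reads could not be assigned to it alone.

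Ctsh, an aminopeptidase of the cathepsin family, had 717, 502 and 729 CPM in the day 10 mice and 458 and 364 CPM in the 48 h mice. It rose by 0.71 (SE 0.19, adjusted p = 0.0409), with mouse 4 the lowest at day 10. Ctsa, a serine carboxypeptidase that also protects the galactosidase and the sialidase Neu1, had 388, 547 and 438 CPM at day 10 and 297 and 311 CPM at 48 h, and rose by 0.64 (SE 0.16, adjusted p = 0.0366). Tpp1, a tripeptidyl peptidase lost in a childhood neuronal storage disease, had 191, 217 and 170 CPM at day 10 and 89.6 and 84.6 CPM at 48 h. It was higher in all 3 day 10 mice, and rose by 1.20 (SE 0.14, adjusted p = 0.0051).

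Ctsk, the collagen-degrading cathepsin best known from osteoclasts, was nearly missing from the cluster at 48 h. It had 203, 206 and 88 UMIs in the day 10 mice and 1 and 7 UMIs in the 48 h mice, which is 8.72, 7.45 and 4.11 CPM against 0.135 and 0.705 CPM. The groups did not overlap (log2 fold change 3.94, SE 0.64, adjusted p = 0.0104), and a fold fitted on so few UMIs at 48 h is imprecise. Interstitial cells, the fibroblast and pericyte label, carried far more of it (mean 181 CPM at day 10 and 31.3 CPM at 48 h). The summed interstitial markers in the macrophage-like cluster (Col1a1, Col3a1, Pdgfrb, Dcn and Acta2, all detected in every mouse) were 52.1, 74.8 and 45.2 CPM at day 10 and 20.2 and 19.9 CPM at 48 h, and their part in the Ctsk difference was not tested.

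The remaining proteases did not pass. Lgmn, the asparagine-specific protease legumain, had 849, 1384 and 868 CPM in the day 10 mice and 706 and 610 CPM in the 48 h mice (log2 fold change 0.71, adjusted p = 0.0760). Ctsz, a carboxypeptidase, averaged 985 CPM at day 10 and 886 CPM at 48 h. Ctsl, a cysteine protease, had 404, 753 and 511 CPM in the day 10 mice and 582 and 681 CPM in the 48 h mice. Its groups overlapped, with mouse 4 the highest of all 5 and mouse 3 the lowest (log2 fold change -0.13, SE 0.26). By UMIs it ranked 12 in the set at day 10, with 2.77%, and 7 at 48 h, with 5.23%.

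Of 8 enzymes that cut sugars and lipids 5 rose. Hexa, the alpha subunit of hexosaminidase that degrades gangliosides, had 519, 434 and 445 CPM in the day 10 mice and 269 and 225 CPM in the 48 h mice. The groups lay well apart, and Hexa rose by 0.97 (SE 0.14, adjusted p = 0.0071). Man2b1, the lysosomal alpha-mannosidase, had 433, 525 and 449 CPM at day 10 and 244 and 274 CPM at 48 h, and rose by 0.91 (SE 0.13, adjusted p = 0.0083). Glb1, the beta-galactosidase, had 33.2, 38.0 and 39.9 CPM at day 10 and 25.9 and 23.2 CPM at 48 h, and rose by 0.65 (SE 0.13, adjusted p = 0.0175). It overlaps Tmppe on the same strand, and reads of these genes could not be told apart there.

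Lipa, the acid lipase that frees cholesterol from cholesteryl esters, had 230, 301 and 310 CPM in the day 10 mice and 164 and 150 CPM in the 48 h mice. It rose by 0.89 (SE 0.15, adjusted p = 0.0119), with no overlap. Asah1, the acid ceramidase, had 309, 391 and 307 CPM at day 10 and 177 and 197 CPM at 48 h, and rose by 0.90 (SE 0.15, adjusted p = 0.0116). Among the enzymes that did not pass, Gla, the alpha-galactosidase, had 17.4, 32.5 and 17.1 CPM at day 10 and 11.9 and 12.8 CPM at 48 h, with the spread at day 10 set by mouse 4 (adjusted p = 0.0925). Neu1, the lysosomal sialidase, averaged 67.0 CPM at day 10 and 51.8 CPM at 48 h (adjusted p = 0.0696). Gusb, the beta-glucuronidase, had 200, 211 and 191 CPM at day 10 and 226 and 231 CPM at 48 h. Those values did not overlap and were lower at day 10, but the difference was small and did not pass (log2 fold change -0.13, SE 0.10, adjusted p = 0.376).

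The activators and cholesterol carriers, 4 genes, all rose. Psap, the precursor of the saposins that present lipids to hydrolases, had 2527, 3180 and 2564 CPM in the day 10 mice and 1470 and 1850 CPM in the 48 h mice. It rose by 0.78 (SE 0.16, adjusted p = 0.0196) and kept its share of the set, 13.9% at day 10 and 13.7% at 48 h. Grn, which encodes progranulin, a secreted and lysosomal protein that binds prosaposin, had 773, 1146 and 770 CPM at day 10 and 489 and 569 CPM at 48 h, and rose by 0.81 (SE 0.21, adjusted p = 0.0378). Npc2 and Npc1 hand cholesterol from the lumen to the membrane and out of the lysosome. Npc2 had 921, 936 and 894 CPM at day 10 and 628 and 612 CPM at 48 h, and rose by 0.62 (SE 0.09, adjusted p = 0.0083). Npc1 had 75.6, 133 and 84.1 CPM at day 10 and 44.4 and 53.7 CPM at 48 h, and rose by 1.05 (SE 0.27, adjusted p = 0.0380).

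Of 7 membrane proteins 3 rose. Cd63, a tetraspanin of late endosomes, lysosomes and exosomes, had 909, 1146 and 927 CPM in the day 10 mice and 301 and 157 CPM in the 48 h mice. Every day 10 mouse was above both 48 h mice by a wide margin, and Cd63 rose by 2.18 (SE 0.29, adjusted p = 0.0064). Its share of the set was 5.03% at day 10 and 1.90% at 48 h. Lamp1, an abundant glycoprotein of the lysosomal membrane, had 944, 1301 and 891 CPM at day 10 and 526 and 545 CPM at 48 h, and rose by 1.02 (SE 0.19, adjusted p = 0.0143). Mcoln1, the calcium channel TRPML1 that acts upstream of TFEB, was scarce, with 11.7, 16.2 and 11.5 CPM at day 10 and 5.67 and 6.55 CPM at 48 h. It rose by 1.15 (SE 0.23, adjusted p = 0.0185).

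The other membrane proteins stayed within 0.31 log2 units. Lamp2, needed for fusion with autophagosomes, averaged 383 ± 33.7 CPM at day 10 (SD, n = 3) and 324 ± 13.2 CPM at 48 h (SD, n = 2), a log2 fold change of 0.29 (adjusted p = 0.116). Scarb2, the receptor that brings glucocerebrosidase to the lysosome, had a log2 fold change of 0.31 (adjusted p = 0.0743), and Laptm5, a lysosomal membrane protein of blood cells, 0.21 (adjusted p = 0.175). Cd68, a scavenger receptor used as a macrophage stain, had 432, 554 and 408 CPM in the day 10 mice and 483 and 455 CPM in the 48 h mice. Its groups overlapped, and its log2 fold change of 0.04 (SE 0.16) became -0.01 on raw totals, where no scaling factors were used. Tfeb itself had 16.5, 23.2 and 24.8 CPM at day 10 and 16.6 and 25.6 CPM at 48 h, with overlapping groups (log2 fold change 0.07, SE 0.25).

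The marker sums of other cells moved with these differences. In the macrophage-like cluster the macrophage markers summed to 37830, 38475 and 34261 CPM in the day 10 mice and 23377 and 22617 CPM in the 48 h mice. Not every marker followed the sum. Fcer1g was lower at day 10, at 2395, 1785 and 2189 CPM against 2712 and 2421 CPM at 48 h. Tyrobp overlapped between the groups, and the others were higher in every day 10 mouse. The 5 monocyte markers (Ly6c2, Vcan, Plac8, Chil3 and Ccr2) summed to 526, 845 and 747 CPM at day 10 and 3400 and 5093 CPM at 48 h. The 7 neutrophil markers summed to 58.6, 90.7 and 103 CPM at day 10 and 1464 and 3282 CPM at 48 h. The 5 dendritic cell markers (Flt3, Xcr1, Clec9a, Cd209a and Zbtb46), all detected in every mouse, summed to 127, 18.2 and 111.3 CPM at day 10 and 13.1 and 9.97 CPM at 48 h, and their part was not tested. Removal of every cell that held a UMI of Ly6c2, Vcan, Plac8 or Chil3 left 1598, 1103 and 1439 cells at day 10 and 220 and 190 at 48 h. Their median depth then separated the groups, at 11259, 14237 and 10388 UMIs at day 10 and 8986 and 7728 at 48 h. The part of this depth difference was not tested. In this fit 22 of the 29 genes rose and 0 fell. The median log2 fold change of the set was 0.89, and over all genes 1705 of 13393 rose. Ccr2 was not used for this removal. In a separate fit, cells with a UMI of the neutrophil markers S100a8, S100a9 or Retnlg were removed, which left 91 cells in mouse 2. Median depth again separated the groups, at 11360, 13627.5 and 10634.5 UMIs at day 10 and 10248.5 and 8816 at 48 h. In that fit 12 genes of the set rose and 0 fell, with a median of 0.84, and over all genes 841 of 13689 rose. The other neutrophil markers were not used. Without cells that held a UMI of Gpnmb or Mmp12, genes of a phagocytic macrophage state, 15 rose and the median was 0.53. Over all genes 1692 of 12619 rose without those cells.

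The number of genes called depended on the 48 h mice. Without mouse 2, only Cd63 of the 29 passed, and without mouse 1 Cd63, Hexa and Tpp1 did, in fits where the lone 48 h mouse was assumed to vary like the day 10 mice. The median log2 fold change was 0.84 without mouse 2 and 0.80 without mouse 1. Without mouse 5 there were 12 calls. Calls over all genes dropped as well, to 77 rises of 14550 genes tested without mouse 2, 263 of 14518 without mouse 1 and 631 of 13192 without mouse 5, against 1610 of 13980 with all mice. Cd63 passed with each of the 5 mice left out in turn.

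In the proximal tubule, the segment that reabsorbs most of the filtrate, 0 of the lysosomal genes passed the test. The 5 labels of proximal tubule epithelial cells (PTEC) held 1176, 334 and 1042 cells in the day 10 mice and 1359 and 769 in the 48 h mice. The share of each label varied between mice. Injured PTECs were 305, 48 and 251 of these cells in the day 10 mice and 590 and 99 in the 48 h mice. The median depth separated the groups, at 12625.5, 14946 and 16589.5 UMIs in the day 10 mice and 6197 and 5996 in the 48 h mice. Of the 28 genes tested (Ctsk was too low), 0 passed by edgeR, where 3.22% of 13899 genes did, and 8 had an unadjusted p under 0.05. DESeq2 called 3. The median log2 fold change was -0.03 over the 28 genes and 0.03 over all genes. The scaling factors differed between the groups by 0.26 log2 units in the proximal tubule, and on raw totals the median of the set was 0.23, 7 of the 28 genes changed sign and still 0 passed. Summed over the set, the level was 7752, 7498 and 7971 CPM in the day 10 mice and 8608 and 7112 CPM in the 48 h mice, with overlapping groups. Gene by gene, CPM were higher in every day 10 mouse than in every 48 h mouse for 16 of the 29, as they were for 43.1% of all genes tested. They were lower for 3, against 8.12% of all genes tested, and overlapped for 10.

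**Figure D2:**
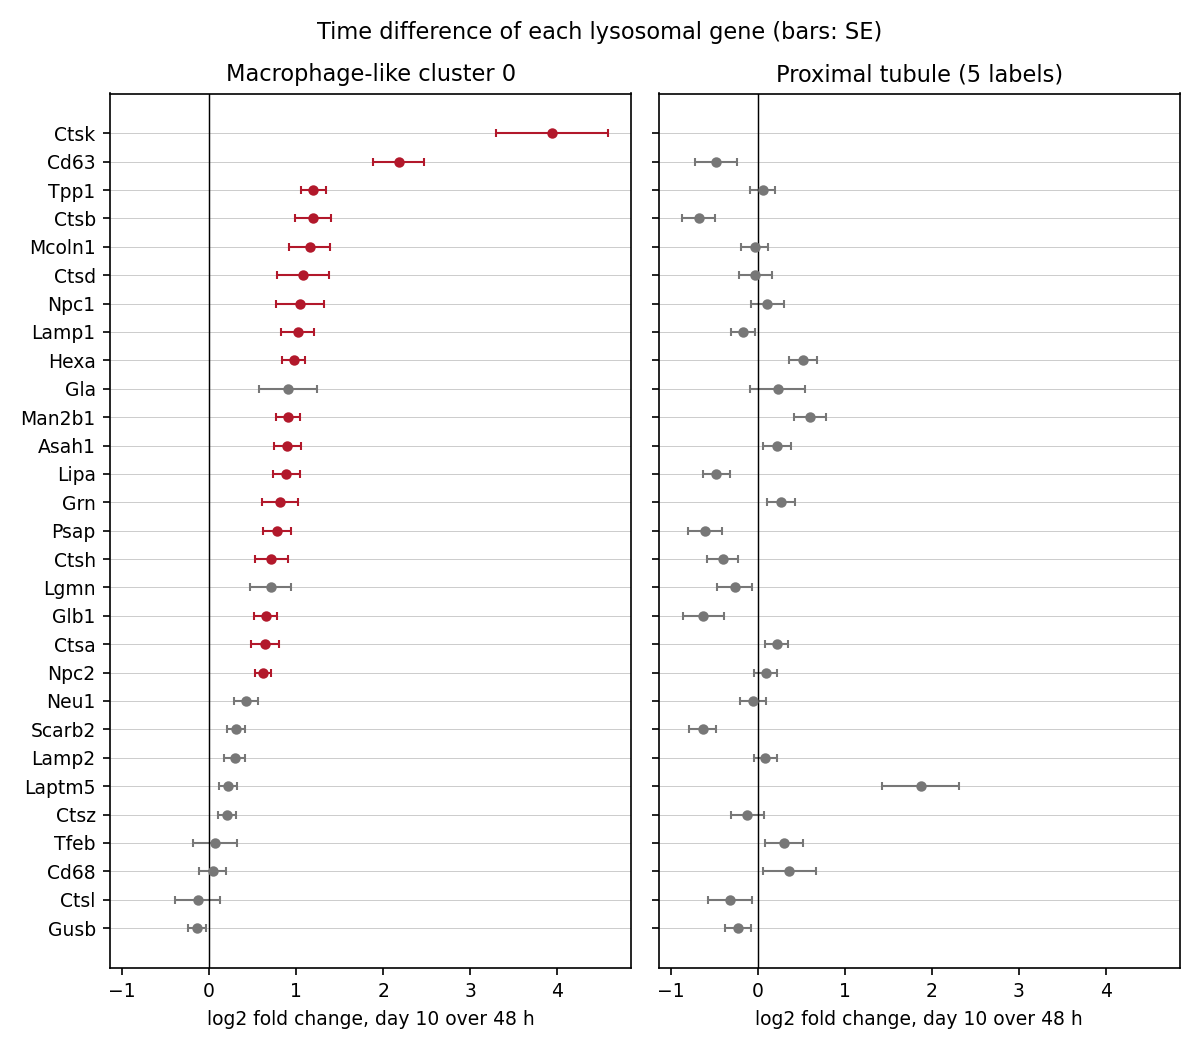
Log2 fold change of each lysosomal gene, day 10 over 48 h, in the macrophage-like cluster (left) and the proximal tubule (right), with SE bars; red marks adjusted p under 0.05 and genes run in the same order in both panels. In the macrophage-like cluster 27 of 29 points lie right of 0, and in the proximal tubule 13 of 28 do.

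By mean CPM at day 10, 5 of the 7 highest genes of the set in the proximal tubule were also among the 7 highest in the macrophage-like cluster (Cd63, Ctsb, Lamp1, Lgmn and Psap). The order differed, and Ctsl and Lamp2 ranked 2 and 5 in the proximal tubule and 12 and 17 in the macrophage-like cluster. Cd63 led the set in the proximal tubule, with 1939, 1417 and 1783 CPM in the day 10 mice and 2409 and 1570 CPM in the 48 h mice. The groups overlapped, and Cd63 was 22.1% of the set's UMIs at day 10 and 25.03% at 48 h. Ctsl was the second gene at both times, with 878, 661 and 804 CPM at day 10 and 1012 and 608 CPM at 48 h. Lamp1 had 742, 714 and 744 CPM at day 10 and 706 and 672 CPM at 48 h. Lgmn had 597, 758 and 678 CPM at day 10 and 803 and 551 CPM at 48 h. For Ctsl and Lgmn the values of the 48 h mice lay on both sides of those at day 10.

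Lamp2 was higher in each day 10 mouse, at 615, 610 and 656 CPM, than in the 48 h mice, at 497 and 487 CPM, but with the scaling factors its log2 fold change was 0.09 (SE 0.13). Psap had 514, 651 and 589 CPM in the day 10 mice and 598 and 885 CPM in the 48 h mice, with overlap. Ctsb had 435, 412 and 519 CPM in the day 10 mice and 689 and 526 CPM in the 48 h mice. Every day 10 mouse was below both 48 h mice for Ctsb, although the test did not pass (log2 fold change -0.68, SE 0.19, adjusted p = 0.0992).

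The smallest p in the proximal tubule belonged to Laptm5, with 8.94, 11.0 and 13.9 CPM in the day 10 mice and 1.36 and 4.02 CPM in the 48 h mice (log2 fold change 1.87, SE 0.44, adjusted p = 0.0742). Scarb2 had 12.9, 14.3 and 15.8 CPM at day 10 and 19.0 and 18.1 CPM at 48 h (log2 fold change -0.63, SE 0.15, adjusted p = 0.0748). Hexa had 54.4, 72.1 and 64.1 CPM at day 10 and 38.6 and 34.8 CPM at 48 h (log2 fold change 0.52, adjusted p = 0.123), and Man2b1 had 90.1, 133 and 99.9 CPM at day 10 and 56.6 and 61.5 CPM at 48 h (0.60, adjusted p = 0.126). None of these 4 genes overlapped between the groups, and none passed.

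Macrophage transcripts were also more frequent among the proximal tubule cells at day 10. The 9 macrophage markers, all detected in every mouse, summed there to 251, 444 and 398 CPM in the day 10 mice and 38.6 and 66.0 CPM in the 48 h mice. Laptm5 in the proximal tubule stood at 0.937, 1.27 and 1.48% of its level in the macrophage-like cluster at day 10 and at 0.174 and 0.467% at 48 h. In another fit every proximal tubule cell with a UMI of Lyz2, C1qa, C1qb, C1qc, Tyrobp or Fcer1g was left out. Csf1r, Adgre1 and Ms4a7 were not used for this removal. It left 174, 30 and 169 cells in the day 10 mice and 1013 and 408 in the 48 h mice. The cells left were shallower, with a median of 4922.5, 3275.5 and 7191 UMIs at day 10 and 5107 and 4143.5 at 48 h. The part of this change in depth was not tested. Laptm5 then failed the filter on low counts, Man2b1 had a log2 fold change of 0.51 (SE 0.23) and Hexa 0.27 (SE 0.25). Ctsb was at -0.74 (SE 0.31) and Scarb2 at -0.51 (SE 0.30). Of the 26 genes then tested 0 passed by edgeR, 3 had an unadjusted p under 0.05, and the median log2 fold change was -0.15.

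The labels inside the proximal tubule differed in level. The S1 label, the first segment, had 8600, 8053 and 8568 CPM on the set in the day 10 mice and 9390 and 7677 CPM in the 48 h mice. Of 28 genes 0 passed in S1, where 2.82% of all genes tested did, and on raw totals Man2b1 passed (log2 fold change 0.94, adjusted p = 0.0321). The Lrp2+ S2/3 label had 6179, 7098 and 6656 CPM in the day 10 mice and 8084 and 7788 CPM in the 48 h mice. The sum was lower in every day 10 mouse, although 0 of 28 genes passed, where 1.07% of all genes did. DESeq2 called 2 genes in the Lrp2+ label, 1 higher and 1 lower, and 1 in S1, which was higher. The shares of all genes given for these labels are by edgeR.

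The Lrp2- S2/3 label, whose cells were shallow with a median of 1862 to 2406 UMIs per mouse, had the lowest level of the proximal tubule labels tested. It had 3034, 3158 and 3313 CPM on the set in the day 10 mice and 2131 and 1924 CPM in the 48 h mice. All 20 genes that passed the low-count filter had a positive fold change, with a median of 0.79, and 1 of them was called, where 1.43% of all genes were. It was Grn, with 66.7, 64.0 and 55.8 CPM at day 10 and 12.3 and 26.7 CPM at 48 h (log2 fold change 1.74, SE 0.40, adjusted p = 0.0368). Grn averaged 896 CPM in the macrophage-like cluster at day 10 and 529 CPM at 48 h. The macrophage markers in these shallow cells summed to 467, 672 and 599 CPM at day 10 and 68.7 and 198 CPM at 48 h.

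Cells labelled as injured PTECs had 8862, 7906 and 9178 CPM on the set in the day 10 mice and 9034 and 7177 CPM in the 48 h mice, the highest mean among the proximal tubule labels at day 10. Of 28 genes tested 3 were called, where 5.88% of all genes were. Laptm5 rose by 2.66 (SE 0.56, adjusted p = 0.0380), at 7.45, 4.73 and 14.5 CPM at day 10 and 1.10 and 1.23 CPM at 48 h. Lipa was at 150, 141 and 162 CPM at day 10 and 185 and 254 CPM at 48 h (log2 fold change -0.95, SE 0.21, adjusted p = 0.0400). Psap was at 558, 537 and 576 CPM at day 10 and 641 and 989 CPM at 48 h (-0.97, SE 0.23, adjusted p = 0.0484). The scaling factors of this label differed by 0.43 log2 units. On raw totals Laptm5 was still called, Lipa and Psap were not, and Hexa, Man2b1 and Grn were called higher. Macrophage markers in these cells, 7 of 9 detected in every mouse (Adgre1 and Ms4a7 were not), summed to 140, 228 and 490 CPM at day 10 and 37.1 and 31.6 CPM at 48 h, and their part was not tested.

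**Figure D3:**
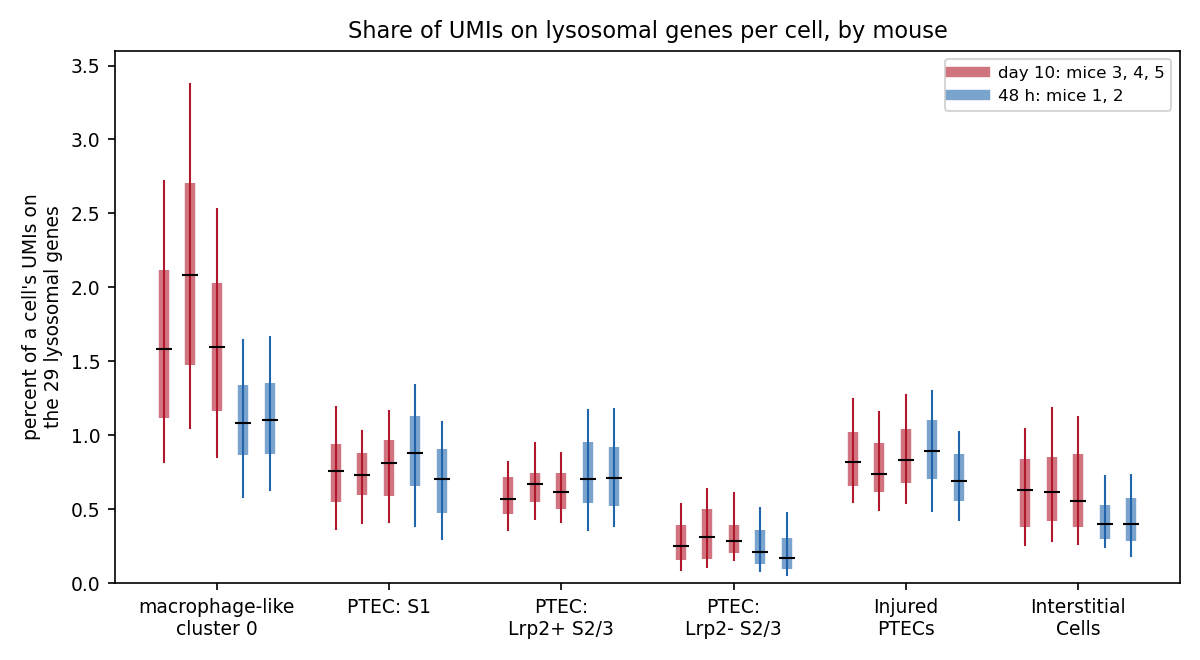
Percent of each cell's UMIs on the 29 lysosomal genes in the macrophage-like cluster, 4 proximal tubule labels and interstitial cells, for day 10 mice 3, 4 and 5 (red) and 48 h mice 1 and 2 (blue); the dash is the median cell, the box the quartiles of cells and the line the outer deciles. Medians of the macrophage-like cluster are 1.59 to 2.08% at day 10 and 1.09 to 1.11% at 48 h, above those of all proximal tubule labels shown.

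The time difference itself was compared between the 2 cell sets in 1 fit with mouse as a block. The depth and the label shares of the proximal tubule cells differed between mice, as given above, and their part was not tested. The log2 fold change was larger in the macrophage-like cluster than in the proximal tubule for 13 of the 29 genes, where 4.05% of 15217 genes were, and smaller for 1, where 2.89% of genes were. The largest difference was for Cd63, 2.77 (SE 0.26, adjusted p = 0.0071), the gene that led the set in the proximal tubule. The Cd63 level in the proximal tubule was 213, 124 and 192% of that in the macrophage-like cluster in the day 10 mice and 800 and 1002% in the 48 h mice. Ctsb followed with a difference of 1.91 (SE 0.29, adjusted p = 0.0195), and Psap with 1.44 (SE 0.15, adjusted p = 0.0080). The others in this direction were Lipa, Glb1, Mcoln1, Lamp1, Tpp1, Ctsh, Ctsd, Scarb2, Lgmn and Npc1. Laptm5 went the other way, with a difference of -1.65 (SE 0.39, adjusted p = 0.0495). On raw totals 9 genes were larger and 1 smaller, and Cd63 and Psap kept the call with each mouse left out in turn.

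Lysosomal genes were also higher at day 10 in interstitial cells. Their set level was 7454, 7141 and 7189 CPM in the day 10 mice and 4745 and 4862 CPM in the 48 h mice, without overlap. Of 29 genes tested 8 rose and 0 fell, where 3.91% of all genes rose. Ctsl had 1749, 1821 and 1687 CPM at day 10 and 709 and 610 CPM at 48 h, and rose by 1.44 (SE 0.13, adjusted p = 0.0013). Ctsk had 187, 210 and 146 CPM at day 10 and 25.9 and 36.7 CPM at 48 h, and rose by 2.59 (SE 0.27, adjusted p = 0.0017). Npc2 had 437, 402 and 450 CPM at day 10 and 147 and 171 CPM at 48 h, and rose by 1.46 (SE 0.16, adjusted p = 0.0018).

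The other 5 genes that rose in interstitial cells were Npc1 (log2 fold change 1.19), Man2b1 (1.10), Ctsa (0.92), Ctsb (0.78) and Lamp2 (0.66). Cd63, which took 1406, 1224 and 1330 CPM in the day 10 mice and 1311 and 1211 CPM in the 48 h mice, had overlapping groups (log2 fold change 0.09, SE 0.12). Macrophage markers in these cells, 6 of 9 detected in every mouse, summed to 366, 401 and 382 CPM at day 10 and 67.2 and 111.8 CPM at 48 h, and their part was not tested. Ctsl and Ctsk stood higher in interstitial cells than in the macrophage-like cluster in every day 10 mouse. The calls of Ctsk, Ctsl and Npc2 held with each mouse left out, while calls in the set numbered 3 without mouse 1 and 4 without mouse 2.

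The neutrophil-like immune cluster 5 gave calls that turned with the scaling. With the scaling factors, which differed by 0.53 log2 units between the groups, Gla rose by 1.43 (SE 0.34, adjusted p = 0.0152) and Ctsd, Cd68, Lamp2 and Scarb2 fell, of 26 genes tested, where 7.79% of all genes rose and 10.7% fell. On raw totals 8 genes were called higher, 0 were called lower and 11 of the 26 changed sign. Gla kept its call on raw totals, at 44.9, 30.5 and 36.2 CPM in the day 10 mice and 11.8 and 8.81 CPM in the 48 h mice. With the DESeq2 Wald test, with equal cells and UMIs, and without mouse 3 or mouse 5, 0 genes of the set were called higher. Of the 5 genes called with the scaling factors, 0 kept the call with each mouse left out in turn. Ctsd was lower on both scales, at 1665, 1255 and 1344 CPM at day 10 and 2425 and 1807 CPM at 48 h (log2 fold change -1.07, adjusted p = 0.0056, and -0.55, adjusted p = 0.0533, on raw totals). The 7 neutrophil markers summed to 58625, 59729 and 65841 CPM there at day 10 and 166434 and 218864 CPM at 48 h.

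In the thick ascending limb 4 genes rose and 2 fell of 29 tested, where 10.4% of all genes changed. Ctsh had 45.3, 61.0 and 64.0 CPM in the day 10 mice and 15.2 and 10.6 CPM in the 48 h mice (log2 fold change 1.75, SE 0.22, adjusted p = 0.0075). Laptm5 (2.18), Asah1 (0.91) and Npc2 (0.52) rose, and Ctsb (-0.72) and Tfeb (-0.69) fell. The scaling factors differed by 0.36 log2 units, and on raw totals 9 genes were called higher and neither fall was called. Macrophage markers in these cells, 9 of 9 detected in every mouse, summed to 340, 495 and 463 CPM in the day 10 mice and 28.1 and 57.8 CPM in the 48 h mice, and their part was not tested. In the descending thin limb Ctsd (1.02) and Asah1 (0.74) rose, of 28 genes tested, where 5.12% of all genes changed.

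In cells labelled as injured distal tubule (Injured DTECs) 1 of 29 genes was called, where 0.199% of all genes were. It was Ctsh, with 76.8, 85.9 and 82.7 CPM in the day 10 mice and 18.7 and 24.6 CPM in the 48 h mice, and it rose by 1.74 (SE 0.18, adjusted p = 0.0155).

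By edgeR 0 of the tested genes of the set passed in T and NK cluster 10 (0.0971% of all genes did, with 1 of 15 members under an unadjusted p of 0.05), endothelial cells (0.328%, 8 of 28), distal tubule and principal cells (0.00774%, 6 of 29), intercalated cells (0.238%, 4 of 28) and cells labelled TEC (0.525%, 6 of 25).

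**Figure D4:**
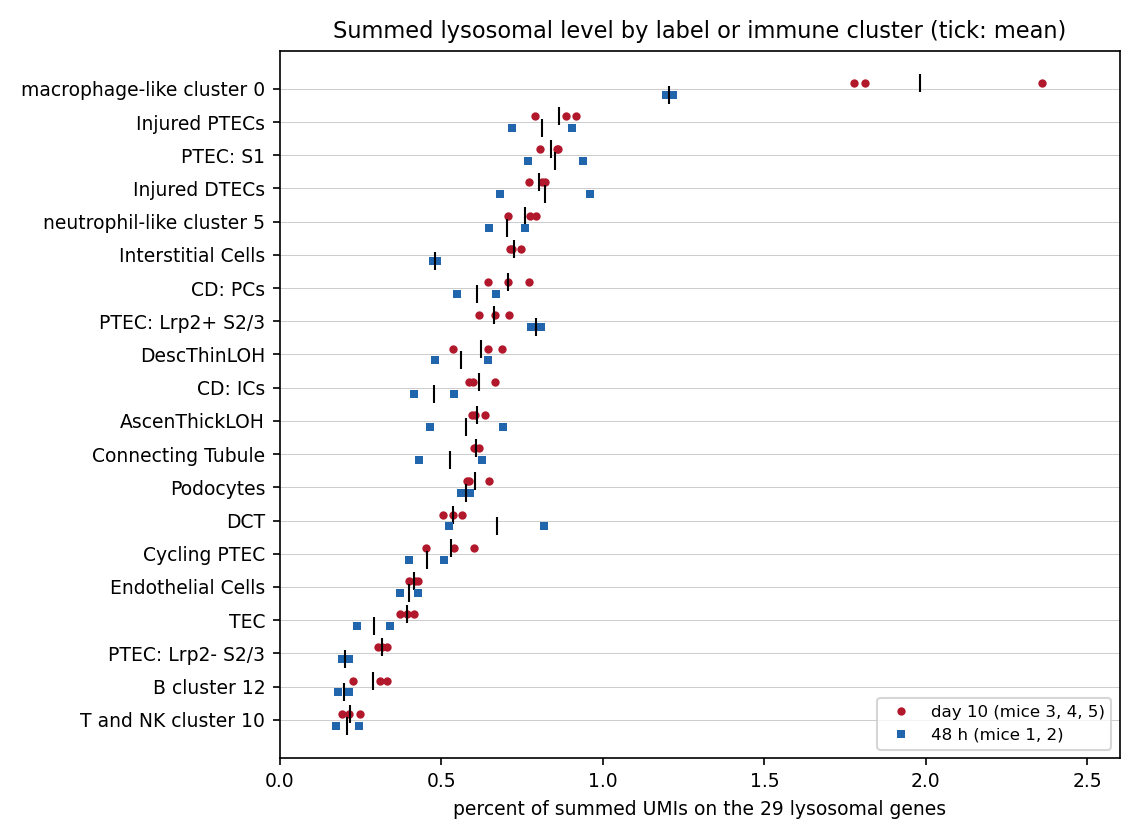
Percent of summed UMIs on the 29 lysosomal genes for each label or immune cluster, 1 point per mouse (day 10, red circles; 48 h, blue squares) with the group mean as a tick, ordered by the day 10 mean. The macrophage-like cluster lies at the top at both times, with 1.78 to 2.36% at day 10 and 1.20 to 1.22% at 48 h.

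Set against 17 labels and clusters with at least 20 cells in every mouse, the macrophage-like cluster had the highest mean CPM for 16 of the 29 genes at day 10 and for 13 at 48 h. It was among the 3 highest for 23 genes at day 10 and for 16 at 48 h. The labels were made by clustering these same genes, so the order is a description. Lamp1, Lgmn, Lipa and Man2b1 had their highest mean in the macrophage-like cluster at day 10 but in another set at 48 h, and Gla the reverse. For Lgmn the S1 label stood at 100.4, 69.4 and 103.8% of the macrophage-like cluster in mice 3, 4 and 5, so its higher mean in that cluster rested on mouse 4. For Lipa the means at day 10 were 280 CPM in the macrophage-like cluster and 252 CPM in S1, a gap smaller than the SD of 43.9 CPM in the macrophage-like cluster. Other sets led for Ctsd (injured distal cells), Ctsl (descending thin limb), Ctsk (interstitial cells), Cd63 (injured PTECs at day 10 and Lrp2+ S2/3 at 48 h), Lamp2, Neu1, Tpp1 and Mcoln1 (S1), Glb1 (Lrp2+ S2/3), and Laptm5, Scarb2 and Tfeb (neutrophil-like cluster). For Tpp1 the S1 label stood at 94.1, 92.1 and 123.9% of the macrophage-like cluster in mice 3, 4 and 5, so its lead at day 10 rested on mouse 5. For Laptm5 the means at day 10 were close, at 942 CPM in the neutrophil-like and 919 CPM in the macrophage-like cluster.

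The genes around the set in the same pathway were read from the same fits. In the macrophage-like cluster 15 of 30 other lysosomal hydrolases rose and 0 fell, with a median log2 fold change of 0.64. Ctsf, a cysteine protease, had 28.8, 29.3 and 32.5 CPM in the day 10 mice and 4.86 and 3.83 CPM in the 48 h mice, and rose by 2.86 (SE 0.16). Acp5, the tartrate-resistant phosphatase, rose by 2.92 (SE 0.24) and Pla2g15, a phospholipase, by 1.33 (SE 0.11). Of 19 other membrane proteins tested 10 rose and 0 fell, among them Gpnmb, a glycoprotein of phagocytic macrophages (log2 fold change 3.48), Cd164 (0.88) and the amino acid sensor Slc38a9 (0.77). Of 18 subunits of the proton pump that acidifies the lumen, 2 rose, Atp6v0d2 (5.79) and Tcirg1 (0.90), and the median was 0.19.

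Of 15 genes that tag and sort hydrolases through mannose-6-phosphate, Ap1b1 and Gga2 rose and Ap1m1 fell, with a median of 0.05. Among 9 listed protease inhibitors 5 were tested, the serpin Serpinb6a rose and Stfa2l1 fell. Of the 19 genes of the TFEB family and of nutrient sensing at the lysosome, 5 rose and 3 fell. Tfec, a TFEB relative of macrophages, had 23.4, 44.3 and 23.8 CPM in the day 10 mice and 7.15 and 7.05 CPM in the 48 h mice and rose by 2.16 (SE 0.36). Flcn and Rragd, which act in the mTORC1-dependent control of this family, rose by 1.52 and 1.63, and Rraga (-0.77), Lamtor5 (-0.47) and Lamtor4 (-0.40) fell. Of 19 autophagy genes 7 rose and 0 fell, among them Gabarapl1 (1.39), Map1lc3a (1.21) and Ulk1 (1.20).

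**Figure D5:**
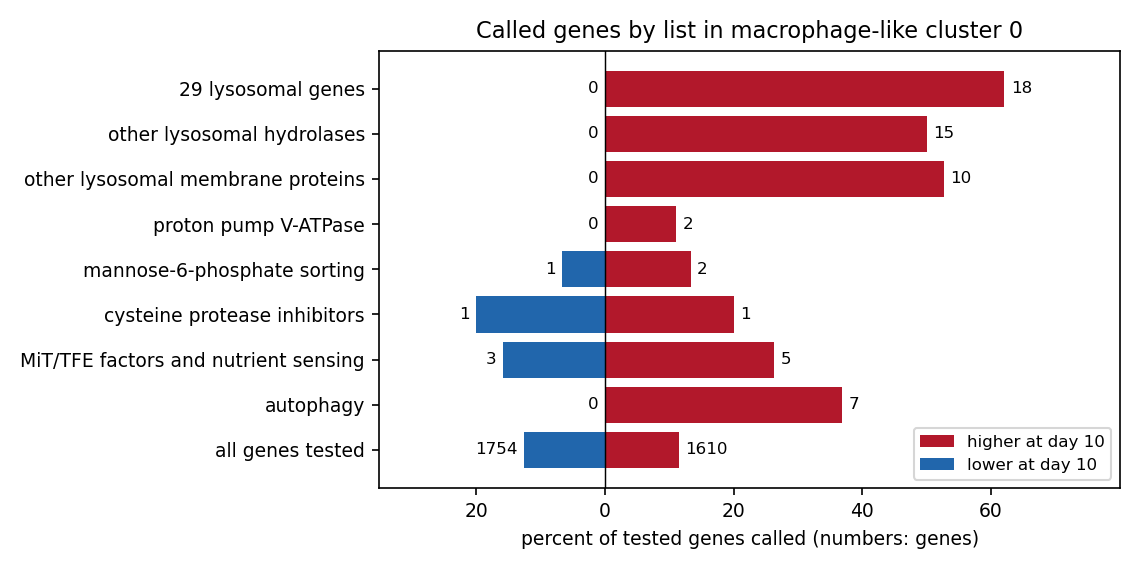
Percent of tested genes called higher (red, right) or lower (blue, left) at day 10 than at 48 h in the macrophage-like cluster, for the 29 lysosomal genes, 7 related lists and all genes tested, with the number of genes at each bar. The 29 genes (18 higher, 0 lower) and the other hydrolases (15 higher, 0 lower) have bars to the right only, and all 13980 genes tested have 1610 higher and 1754 lower.

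In the proximal tubule the same lists held 4 calls among 125 genes tested, 3.20%, beside the 3.22% of all genes tested there. Ctss, a protease of immune cells, rose by 2.66 (SE 0.40) at 18.6, 36.2 and 24.2 CPM in the day 10 mice and 2.22 and 4.88 CPM in the 48 h mice. Atp6v0d2 rose by 2.71 (SE 0.49) at 5.22, 3.65 and 3.69 CPM at day 10 and 0.302 and 0.856 CPM at 48 h, a level near the limit of detection. Acp5 and the pump subunit Atp6v0a2 fell by 0.69 and 0.68 on the log2 scale. Ctss and Atp6v0d2 were also higher at day 10 in the macrophage-like cluster, and the macrophage markers given above for the proximal tubule moved with them.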

How the data were processed

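For each library the authors deposited raw UMI counts by gene and barcode, and for the series a table that gives every kept cell its label, cluster, UMI count, percent of mitochondrial UMIs and embedding scores, which were not used here. The kit was the 10x Genomics 3' kit, version 3.1, per the labels' protocols. Cell Ranger 6.0.2, Seurat 4.0.5 and mm10 are named in the submitters' processing notes, but the matrices carry Cell Ranger 6.0.0 per the file headers, and it was not settled which made the files. No removal of doublets or free RNA is given in the sources used here, and none was added.

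The 29 members, the related lists and the tests were chosen with earlier results of these data known. Kept cells were 5912, 3909 and 5361 in day 10 mice 3, 4 and 5 and 4895 and 3720 in 48 h mice 1 and 2, with 57375234 to 78351722 UMIs at day 10 and 45887945 to 60583527 at 48 h. Their UMI counts equalled the table's in every cell. Raw UMIs were summed per mouse and label (at least 20 cells in every mouse) and tested on all genes with the quasi-likelihood F test of edgeR 4.0.16 (R 4.3.3), after filterByExpr and with TMM factors and Benjamini-Hochberg correction. SE was obtained from the fold change and F. CPM are of raw totals, so ratios of CPM can differ from fitted folds. The difference between 2 cell sets was an interaction term with mouse as a block. No set test and no p for a summed level was computed. All 29 genes were accounted for; values per mouse were given where a gene passed in the macrophage-like cluster, passed or exceeded 5% of the set's UMIs in the proximal tubule, or had there 1 of the 5 smallest p. In related lists, up to 3 rises and 3 falls of smallest adjusted p were named; some other genes were named after their values were seen. Alternatives were DESeq2 1.42.0 (size factors, Wald test), no low-count filter, raw totals, each mouse left out, cells with marker UMIs left out, and equal cells of 2000 UMIs each. The fit was tried on simulated counts. For the macrophage-like cluster (13717 genes) it recovered 34 of 100 genes changed by 1 log2 unit and 98 of 100 changed by 2. For the proximal tubule (13633 genes) it recovered 53 and 100 of 100. Among unchanged genes it called 10 and 9. The simulated spread between mice was set by hand and only well-counted genes were changed, so recovery in the real counts can differ. Gene models are from GENCODE M21 and promoters from RefSeq.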

Additional observations from a re-analysis of the deposited data

Results flagged for a closer look

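The time differences in the macrophage-like cluster and in the proximal tubule were set against each other gene by gene in the edgeR interaction fit, and 14 of the 29 lysosomal genes differed beyond the threshold on the adjusted p. Values are the log2 fold change (day 10 over 48 h) in the macrophage-like cluster minus that in the proximal tubule. The difference was 2.77 for Cd63, 1.91 for Ctsb, 1.44 for Psap, 1.41 for Lipa and 1.37 for Glb1. It was 1.24 for Mcoln1, 1.24 for Lamp1, 1.21 for Tpp1, 1.20 for Ctsh and 1.11 for Ctsd. It was 1.02 for Scarb2, 0.98 for Lgmn and 0.96 for Npc1, and -1.65 for Laptm5. Cd63 and Psap passed with each mouse left out in turn, and the other 12 lost the call in at least 1 of these fits. Macrophage markers were higher among proximal tubule cells at day 10, as given above, and their part in these differences was not tested.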

How the results depend on the processing

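No paired analysis was possible because the mice are numbered 1 to 5 and the groups share no number. In the macrophage-like cluster 17 to 20 genes rose with DESeq2, DESeq2 size factors, no filter or raw totals. Rises numbered 15 with equal cells and UMIs and 25 without cells holding an H2-Aa UMI, and 0 genes fell in every alternative run. The H2-Aa removal was uneven, and left 383, 1044 and 246 cells in mice 3, 4 and 5 and 275 and 419 in mice 1 and 2. Over all genes 1443 to 1670 of 13980 rose with DESeq2, DESeq2 size factors or raw totals, and 1786 of 20744 with no filter. With equal cells and UMIs 639 of 8287 rose, and without cells holding an H2-Aa UMI 1910 of 11392 rose. Of the 18 genes called there, 9 (Asah1, Cd63, Ctsb, Grn, Hexa, Lamp1, Man2b1, Npc2 and Tpp1) kept the call in every alternative that left out no mouse. Leaving out 1 mouse in turn gave 1 to 20 rises there, 0 to 6 calls in the neutrophil-like cluster, 0 to 1 in the proximal tubule, the Lrp2+ S2/3 and the Lrp2- S2/3 labels, 0 to 5 in the thick ascending limb, 0 to 2 in the descending thin limb and injured PTECs, 3 to 6 in interstitial cells, and 3 to 13 in the difference between cell sets. Without the filter, calls numbered 2 in the proximal tubule, 10 in the thick ascending limb, 5 in Lrp2+ S2/3, 2 in Lrp2- S2/3 and 4 in S1. With DESeq2 they numbered 3 in the neutrophil-like cluster, 3 in the proximal tubule, 2 in Lrp2+ S2/3, 0 in Lrp2- S2/3 and 1 in S1. The neutrophil-like cluster had 8 calls on raw totals and 1 with equal cells and UMIs, and S1 had 1 on raw totals. The log2 ratio of the summed level in the proximal tubule was -0.02, -0.29 with TMM-scaled totals and -0.15 to 0.12 with a mouse left out, a change of sign. The cause of these changes was not tested. With 2 mice at 48 h, fits without 1 of them rest on a single early mouse, and low counts limit Ctsk, Mcoln1, Gla and Tfeb most.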
